A study of Mus musculus with 10 samples.

Results

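A set of 10 genes that encode or organize cell-cell junctions of the endothelium were followed across LECs and blood vascular endothelial cells (BECs) of mouse ear skin: the tight junction strand proteins *Cldn5* (claudin 5) and *Ocln* (occludin), the junctional adhesion molecules *F11r* (JAM-A), *Jam2*, *Jam3* and *Esam*, the adherens junction cadherin *Cdh5* (VE-cadherin), the adhesion molecule *Pecam1* (CD31), and the cytoplasmic scaffolds *Tjp1* (ZO-1) and *Cgn* (cingulin). The list was set by name, with earlier results of these data known. All 10 were found among the 42561 genes joined across the plate tables and among the 32285 genes of the 10x matrices. A total of 8 plates of single LECs (Smart-seq, in which each well holds 1 sorted cell) and a pair of 10x libraries of sorted endothelial cells were measured. Control plates came from Cre- pups of the strains Tie1 fl/fl and Tie1 fl/fl,Tie2 fl/fl, and deleted plates from Prox1CreERT2;Tie1 fl/fl pups (Tie1-deleted) and Prox1CreERT2;Tie1 fl/fl,Tie2 fl/fl pups (Tie1/-2–deleted), with 2 plates in each of the 4 genotypes. All of these pups, controls included, received 4-hydroxytamoxifen (4-OHT) on P1 to P5 and were analyzed on P28, and the LECs were sorted as CD31+ PDPN+ cells free of CD45, CD11b and Ter119. Cre was driven by the *Prox1* locus, which marks LECs, so deletion was directed to LECs. The 10x libraries were prepared from WT C57Bl/6j mice that were given 20 mg/kg of an Ang2-blocking antibody (Ang2 Ab) or of control IgG every 3 days from P16 to P21, with 1 library per treatment, and these cells were sorted on CD31. The Ang2 Ab library was placed by its treatment label, since its title also holds the word control, and the age label of both libraries spans P1 to P21. *Pecam1* encodes CD31, so its presence in these cells was fixed by the sort.

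Endothelial junctions control how fluid and cells cross the vessel wall. VE-cadherin holds neighboring cells together through catenins, claudins seal the intercellular space, the JAM family bridges the cells beside them, and ZO-1 and cingulin tie these proteins to actin. Lymphatic capillaries have discontinuous, button-like junctions between oak leaf–shaped cells, whereas collecting vessels have continuous, zipper-like junctions, and the angiopoietins that bind the Tie receptors are known regulators of junction maturation in both vessel systems.

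The total count per plate lay between 71309205 and 110741537, and 2707 of 3048 wells were counted as LECs, with 66971732 to 104196426 counts per plate. The IgG library held 4685 cell barcodes with 42337184 unique molecular identifiers (UMIs) and the Ang2 Ab library 4331 barcodes with 31720670 UMIs, and the libraries shared 5 barcodes. *Prox1*, the transcription factor that defines LECs, was read at 690.5 to 1097 CPM, the counts of a gene scaled to a common library total, on the 8 plates. *Tie1* stood at 2218 and 2844 CPM in Tie1 fl/fl controls and at 684 and 626 CPM on the Tie1-deleted plates, although this did not pass the test over all genes (log2 fold change -1.95, SE 0.25, edgeR adjusted p = 0.333), and stood at 2744 and 2546 CPM on the Tie1 fl/fl,Tie2 fl/fl plates against 731 and 453 CPM on the Tie1/-2–deleted plates. *Tek*, which encodes Tie2, was read at 309 and 290.2 CPM on the Tie1 fl/fl,Tie2 fl/fl plates and at 32.4 and 49.9 CPM on the Tie1/-2–deleted plates. Each targeted gene was thus lower on both deleted plates than on both of their controls. Keratinocyte markers summed to 9.0 to 61.9 CPM on a plate over 5 genes, fibroblast markers to 18.7 to 275 CPM over 5 genes and mural cell markers to 12.9 to 164 CPM over 8 genes. The mural sums of the Tie1/-2–deleted plates, 164 and 144 CPM, were above those of the other 6 plates, as were their sums of 7 BEC markers, at 2653 and 2089 CPM against 1295 to 1781 CPM. The mural marker *Kcnj8* and the BEC marker *Aqp1* were also leading genes of an LEC cluster of 541 wells, so these sums do not count other cell types alone. The part of other cell types in the results below was not tested. In the Tie1 strain 1 plate of each genotype was labelled female, and the other 6 plates were labelled male.

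RefSeq promoters (GRCm38.p6, 250 bases before the transcript start to 50 bases after it) were held for 5 of the 10 genes. The 3 shown are those of *Cldn5* and *F11r*, which were higher in LECs than in BECs in the 10x libraries, and that of *Tjp1*, which was lower. Capitals mark the CCAAT box, whose letters are its name. They also mark GGGCGG, the core of the GC box, and both were searched on either strand. *Cldn5* lies on chromosome 16 at 18776847 to 18778262 on the + strand, *F11r* on chromosome 1 at 171437535 to 171464603 on the + strand and *Tjp1* on chromosome 7 at 65296165 to 65527781 on the - strand of GRCm38. The *Tjp1* window shown lies inside the gene and not at 65527781, its outermost start on the - strand, so it belongs to an internal transcript start.
*Cldn5*, chr16:18776597-18776896, + strand: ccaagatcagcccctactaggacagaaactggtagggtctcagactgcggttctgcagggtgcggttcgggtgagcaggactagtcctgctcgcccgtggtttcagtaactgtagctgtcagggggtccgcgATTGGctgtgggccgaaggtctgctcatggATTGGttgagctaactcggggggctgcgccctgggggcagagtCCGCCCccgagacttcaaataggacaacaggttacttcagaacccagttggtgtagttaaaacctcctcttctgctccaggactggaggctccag
*F11r*, chr1:171437311-171437610, + strand: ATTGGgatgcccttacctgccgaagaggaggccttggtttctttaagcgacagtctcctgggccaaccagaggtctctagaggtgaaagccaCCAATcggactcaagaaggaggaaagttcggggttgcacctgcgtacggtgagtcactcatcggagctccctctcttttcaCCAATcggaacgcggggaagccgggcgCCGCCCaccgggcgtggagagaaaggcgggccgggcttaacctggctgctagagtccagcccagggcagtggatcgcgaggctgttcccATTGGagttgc
*Tjp1*, chr7:65371195-65371494, - strand: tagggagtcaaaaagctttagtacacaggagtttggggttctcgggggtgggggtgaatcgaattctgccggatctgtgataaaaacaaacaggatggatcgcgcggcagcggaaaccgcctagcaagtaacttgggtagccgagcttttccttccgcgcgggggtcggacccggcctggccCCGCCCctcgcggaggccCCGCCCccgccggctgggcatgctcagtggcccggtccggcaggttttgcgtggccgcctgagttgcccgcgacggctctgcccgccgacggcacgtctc
The *Cldn5* window held 2 CCAAT boxes and 1 GC box at 58.3% G and C, the *F11r* window 4 CCAAT boxes and 1 GC box at 60.3%, and the *Tjp1* window no CCAAT box and 2 GC boxes at 65.3%. Over the 10 genes the table held no entry for *Esam*, *Cdh5*, *Jam2*, *Jam3* and *Pecam1*. Of 32851 RefSeq promoters of the same length, 37.4% held a CCAAT box and 35.7% a GC box. None of the 3 windows held the ETS letters CCGGAAG or CAGGAAG or the forkhead letters GTAAACA on either strand, which 20.9% and 3.65% of all promoters held. A match is a string of letters and not a measured binding site.

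Which of these genes LECs carry, and at what level, was read first from the control plates. *Cldn5* led on a per-length scale, at 1976 ± 220 CPM per kb of exon (SD, n = 4 plates), followed by *F11r* at 448 ± 24.1, *Pecam1* at 286 ± 25.4, *Esam* at 82.9 ± 19.5 and *Cdh5* at 67.1 ± 9.59 CPM per kb. The ranges of *Esam* (57.0 to 101 CPM per kb) and *Cdh5* (56.9 to 78.9 CPM per kb) overlapped, whereas those of *Cldn5*, *F11r* and *Pecam1* did not overlap with each other. *Tjp1* stood at 10.4 ± 1.69 and *Jam3* at 3.43 ± 0.684 CPM per kb. Below *Cldn5* the order was another in LECs of the 10x IgG library, in UMI CPM not scaled by length. *Pecam1* stood there at 629, *Cdh5* at 478, *F11r* at 404, *Tjp1* at 177 and *Esam* at 96.0 CPM, so the ranking depends on the platform and scale. *Cldn5* and *Pecam1* had a read in each of the 2707 LEC wells, *F11r* in 99.9% and *Cdh5* in 98.3%. *Esam* had a read in 76.0% of the wells (51.3% to 97.4% by plate), *Tjp1* in 66.2% (43.9% to 89.7%) and *Jam3* in 13.9% (6.41% to 23.5%). The shares of *Esam* and *Tjp1* were higher on every plate whose table was keyed by gene symbol than on every plate keyed by Ensembl identifier. Median genes per well split the same way, at 5782 to 6849 against 3580 to 4981.5. The part of this split in the shares was not tested.

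The remaining 3 genes were near the limit of detection in LECs. *Jam2* had 811 reads in 141 wells, *Cgn* 131 reads in 74 wells and *Ocln* 445 reads in 35 wells. On the Tie1-deleted plate 1, where *Ocln* was highest at 3.68 CPM, 249 of its 322 reads (77.3%) came from 1 well, and that well had 0 reads of the keratinocyte markers.

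**Figure D1:**
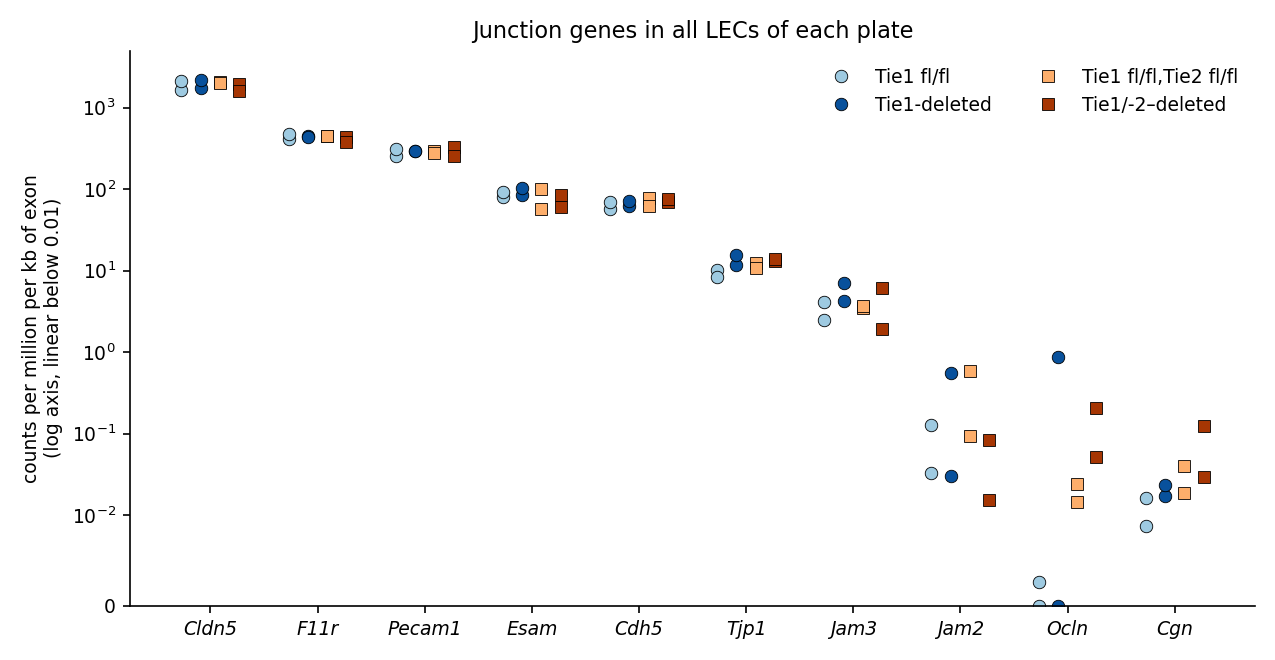
Level of each junction gene in the summed LECs of each of the 8 plates, in CPM per kb of exon on a log axis that is linear below 0.01, with 1 point per plate and the 4 genotypes in color. *Cldn5* was highest on every plate, and the points of deleted and control plates lay close together for *Cldn5*, *F11r*, *Pecam1* and *Cdh5*.

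The plate wells were clustered without the 10 genes and without 57 other junction genes, and 3 LEC classes were named from markers: capillary-like (386 wells), collector-like (410) and valve-like (489). *Esam*, which encodes an adhesion molecule of endothelial tight junctions and platelets, was highest in the valve-like LECs. It stood at 82.2, 160.3 and 289.6 CPM (lowest, median and highest of 8 plates) in capillary-like LECs, at 65.2, 263 and 498 CPM in collector-like LECs and at 299.8, 544 and 663 CPM in valve-like LECs. The valve-like level was above the capillary-like and the collector-like level on 8 of 8 plates, and across plates the valve-like values did not overlap with those of capillary-like LECs but overlapped with those of collector-like LECs. The log2 fold change was 1.64 (SE 0.29) for valve-like against capillary-like LECs (edgeR, plate as a block, adjusted p = 0.00159) and 1.11 (SE 0.28) for valve-like against collector-like LECs (adjusted p = 0.0294). The first call held in 13 of 13 alternative fits and the second in 6 of 13. The second was lost when any plate other than the Tie1-deleted plate 2 and the Tie1/-2–deleted plate 2 was left out (edgeR adjusted p = 0.0515 to 0.0941) and with finer clusters (adjusted p = 0.256).

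*Cdh5* was the other gene that set valve-like LECs apart from collector-like LECs. Its levels were 196, 274 and 329 CPM in capillary-like, 242, 295 and 368 CPM in collector-like and 193, 228 and 328 CPM in valve-like LECs (lowest, median and highest of 8 plates). The classes overlapped across plates, but within a plate the valve-like level was below the collector-like level on 8 of 8 plates, by 0.34 on the log2 scale (log2 fold change -0.34, SE 0.09, edgeR adjusted p = 0.0306). This call held in 5 of 13 alternatives. It was lost when any plate other than the Tie1 fl/fl plate 2 and the Tie1/-2–deleted plate 2 was left out (edgeR adjusted p = 0.0559 to 0.138), and on the 4 control plates alone the adjusted p was 0.345.

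*Jam3* was carried by few wells, and its class levels rest on few cells. It stood at 0, 0.489 and 25.8 CPM in capillary-like LECs, at 15.4, 20.7 and 69.7 CPM in collector-like LECs and at 2.36, 9.19 and 35.4 CPM in valve-like LECs. It was higher in collector-like than in capillary-like LECs on 7 of 8 plates, with a log2 fold change of 4.48 (SE 1.06, edgeR adjusted p = 0.0376). The call held in 7 of 13 alternatives and was lost when any plate other than plate 1 of either deletion was left out (edgeR adjusted p = 0.0657 to 0.143). In the collector-like LECs 82 of 410 wells had a *Jam3* read, and on a plate the highest of these wells gave 27.4% to 98.5% of the reads. *Jam3* shares 1159 bases of exon with *Gm48796* on the opposite strand, so its reads could include some from that gene if strand was not used.

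*Cldn5*, *F11r*, *Pecam1* and *Tjp1* were not called between any of the classes. *Cldn5* stood at 2713 ± 314 CPM in capillary-like, 3135 ± 399 in collector-like and 2985 ± 423 CPM in valve-like LECs (SD, n = 8 plates), and the collector-like level was above the capillary-like level on 7 of 8 plates (log2 fold change 0.21, SE 0.05, edgeR adjusted p = 0.0726, and 0.0274 with DESeq2). *F11r* was even, at 1222 ± 116, 1188 ± 166 and 1201 ± 116 CPM. *Tjp1* stood at 97.1 ± 41.4, 90.8 ± 39.2 and 120.2 ± 18.4 CPM. Of the 7 junction genes that passed the filter on low counts, 1 was called between collector-like and capillary-like LECs, 1 between valve-like and capillary-like LECs and 2 between valve-like and collector-like LECs, against 1.5%, 4.42% and 3.96% of the 13711 genes tested. *Jam2*, *Ocln* and *Cgn* did not pass that filter. The median log2 fold change over the 7 genes was 0.16, 0.13 and -0.05 in that order, and over all genes -0.02, 0.05 and 0.08.

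**Figure D2:**
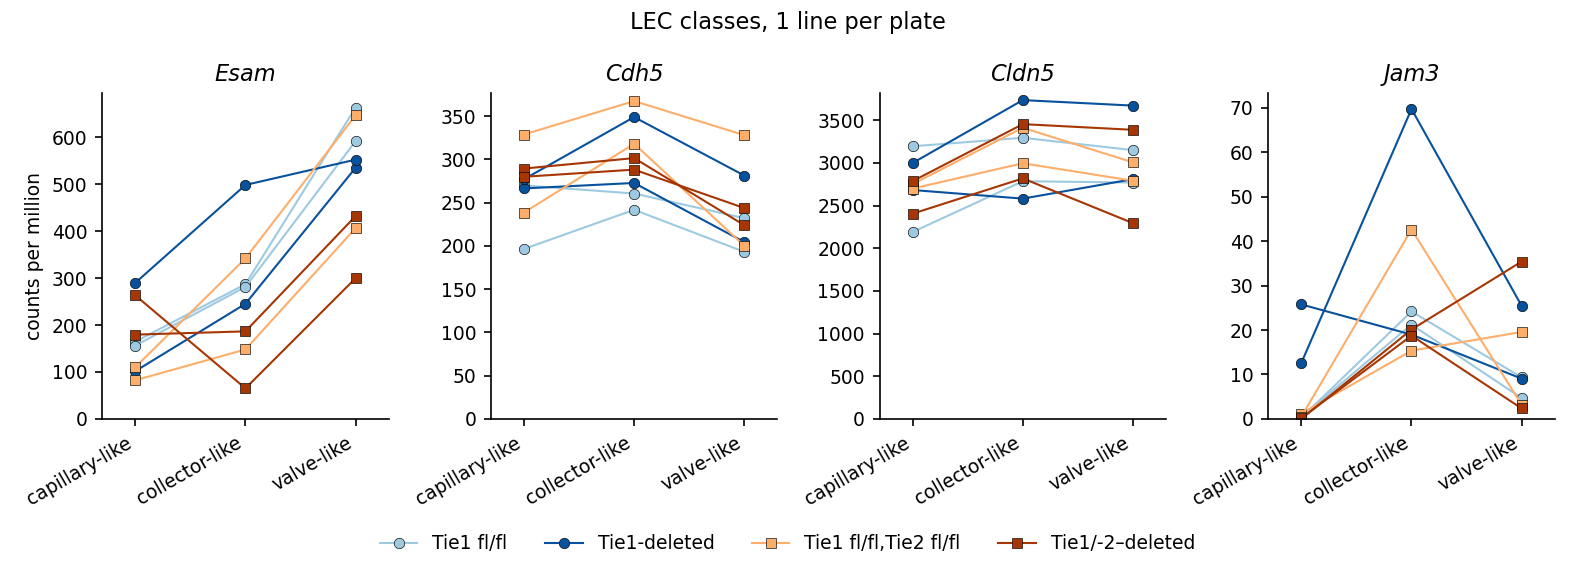
CPM of *Esam*, *Cdh5*, *Cldn5* and *Jam3* in capillary-like, collector-like and valve-like LECs, with 1 line per plate. *Esam* was higher in valve-like than in capillary-like LECs on 8 of 8 plates, and *Cdh5* was lower in valve-like than in collector-like LECs on 8 of 8 plates.

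In addition, 43 other junction genes were tested between the classes, from a list made with earlier results of these data known. *Cldn11*, a claudin that the study used as a valve marker on these same cells, so that its direction is not independent evidence, was higher in valve-like than in capillary-like LECs by 4.15 (SE 0.41) and than in collector-like LECs by 2.60 on the log2 scale. *Tjp3*, a further ZO scaffold, was higher in valve-like than in capillary-like LECs by 4.96 and *Ptprb*, a phosphatase that acts on Tie2 and VE-cadherin, by 1.10. In capillary-like LECs *Tjp3* was near the limit of detection, at 0, 0.341 and 0.546 CPM (lowest, median and highest of 8 plates). Its valve-like levels were 0.114, 5.47 and 35.4 CPM, so the size of this fold is uncertain. *Mcam* (CD146) fell by 1.68 and *Nectin2*, an adhesion molecule of adherens junctions, fell by 0.74 in valve-like against capillary-like LECs. *Pard6g*, a polarity gene, was also lower there (log2 fold change -0.27). Against collector-like LECs *Mcam* fell by 2.28, *Amotl2* fell by 1.31, *Nectin2* fell by 0.74 and *Ctnnb1*, which encodes β-catenin, fell by 0.46. The genes named are the 6 with the lowest p in a contrast. In all, 4 of the 43 were higher and 4 lower in valve-like than in capillary-like LECs, 1 and 4 against collector-like LECs, and 1 and 1 (*Cldn11* higher by 1.56 and *Pard6g* lower, log2 fold change -0.33) between collector-like and capillary-like LECs. Of the 13711 genes tested, 4.42%, 3.96% and 1.5% were called in these contrasts, in that order. With a plate left out, the *Cldn11* call between collector-like and capillary-like LECs was lost for 6 of the plates (edgeR adjusted p = 0.0727 to 0.134), that of *Tjp3* for 3 (up to 0.0748), that of *Amotl2* for 2 (up to 0.0511) and that of *Pard6g* against valve-like LECs for 1 (0.0586).

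Whether loss of Tie1, or of Tie1 and Tie2, changed the junction genes of LECs was tested on the summed LECs of each plate. None of the 10 genes was called after either deletion by edgeR or by DESeq2. The background was 0 of 19926 genes (0%) after Tie1 deletion, where 855 genes and 1 of the 10, *Ocln*, had an unadjusted p under 0.05, and 241 genes (1.21%) after Tie1/-2 deletion, where 0 of the 10 had one. DESeq2 called 236 and 1162 genes after these deletions. Summed LECs do not separate fewer cells of a class from less RNA per cell. The median log2 fold change over the 10 genes was 0.33 and 0.04, and over all genes -0.0028 and -0.00135. Without *Jam2*, *Ocln* and *Cgn*, which had few reads, the median over the other 7 genes was 0.08 and 0.04. The number of mice behind a plate was not given, so the p-values measure the spread between plates.

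*Cdh5* stood at 239 and 296 CPM in Tie1 fl/fl controls and at 261 and 303 CPM on the Tie1-deleted plates, and at 332 and 262 CPM on the Tie1 fl/fl,Tie2 fl/fl plates and at 293 and 318 CPM on the Tie1/-2–deleted plates. Deleted and control plates overlapped in both strains, with log2 fold changes of 0.08 (SE 0.22) and 0.04 (SE 0.22). *Cldn5* stood at 2341 and 3030 CPM against 2470 and 3124 CPM for Tie1, and at 2955 and 2867 CPM against 2756 and 2285 CPM for Tie1/-2. Both Tie1/-2–deleted plates were below both of their controls, by a log2 fold change of -0.21 (SE 0.19, edgeR adjusted p = 0.813). Deleted and control plates failed to overlap for 29.0% of all genes after Tie1 deletion and for 37.3% after Tie1/-2 deletion.

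*F11r* stood at 1103 and 1254 CPM against 1210 and 1158 CPM after Tie1 deletion and at 1205 and 1212 CPM against 1161 and 1014 CPM after Tie1/-2 deletion (log2 fold changes 0.01, SE 0.16, and -0.15, SE 0.16), and both Tie1/-2–deleted plates were below both of their controls. *Esam* stood at 229 and 269 CPM against 240.7 and 295 CPM and at 163 and 290.4 CPM against 240.3 and 173 CPM (0.11, SE 0.31, and -0.13, SE 0.31), and its plates overlapped in both strains. *Pecam1* changed by 0.04 (SE 0.18) in either deletion. *Jam3* stood at 7.92 and 13.0 CPM against 13.5 and 22.4 CPM and at 11.0 and 11.9 CPM against 19.8 and 6.07 CPM (0.78, SE 0.61, and 0.17, SE 0.61).

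The genes near the limit of detection gave too few reads for a level. *Ocln* had 1 and 0 reads on the Tie1 fl/fl plates, 322 and 0 on the Tie1-deleted plates, 5 and 10 on the Tie1 fl/fl,Tie2 fl/fl plates and 14 and 93 on the Tie1/-2–deleted plates, so its low p after Tie1 deletion (unadjusted p = 0.0226, edgeR adjusted p = 1) rests on 1 plate. After Tie1/-2 deletion both deleted plates were above both controls in *Ocln* CPM. *Cgn* had 9 and 4 reads against 9 and 11 in the Tie1 strain and 20 and 11 against 48 and 19 in the other, and in CPM its plates overlapped in the latter. *Jam2* had 71 and 15 against 16 and 261 reads, and its plates overlapped in CPM after Tie1 deletion. After Tie1/-2 deletion it had 46 and 341 against 6 and 55 reads, or 0.560 and 3.50 CPM against 0.0936 and 0.509 CPM, so that both deleted plates were below both controls (unadjusted p = 0.133, edgeR adjusted p = 0.633).

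*Tjp1* had the largest difference for its error among the genes read in most wells. It stood at 79.4 and 65.0 CPM in Tie1 fl/fl controls and at 91.9 and 120.5 CPM on the Tie1-deleted plates, and at 96.9 and 84.5 CPM on the Tie1 fl/fl,Tie2 fl/fl plates and at 104 and 109.9 CPM on the Tie1/-2–deleted plates. Both deleted plates were above both controls in each strain, although the Tie1-deleted plate at 91.9 CPM was below the highest control of the other strain. The log2 fold change was 0.56 (SE 0.24, edgeR adjusted p = 1, unadjusted p = 0.0505) after Tie1 deletion and 0.24 (SE 0.24) after Tie1/-2 deletion, and the average of both deletions was 0.40 (SE 0.17, unadjusted p = 0.0486, edgeR adjusted p = 0.499), so no change was called.

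By class, *Tjp1* was looked at in the collector-like LECs, which were singled out after their values were seen. There the control plates stood at 77.3, 45.4, 66.0 and 50.3 CPM and the deleted plates at 84.8, 152, 118 and 133 CPM (average log2 fold change 1.03, SE 0.39, unadjusted p = 0.0282, edgeR adjusted p = 0.413). The share of all genes whose deleted and control plates lay apart in this class was not counted. For each deletion alone, 0 of 7 junction genes in this class had an edgeR unadjusted p under 0.05. The Tie1/-2–deleted plates had 14 and 12 collector-like wells, against 52 to 86 on the other plates. In valve-like LECs *Tjp1* stood at 118 to 138 CPM on control plates and at 97.9 to 152 CPM on deleted plates. In capillary-like LECs its range was the widest of the classes, at 29.7, 93.6 and 169.5 CPM (lowest, median and highest of 8 plates, deleted and control plates together).

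The class values of *Jam3* rested on few wells. In capillary-like LECs it stood at 0.487, 0.256, 1.22 and 0.491 CPM on the 4 control plates, at 25.8 and 12.6 CPM on the Tie1-deleted plates and at 0 and 0.169 CPM on the Tie1/-2–deleted plates. Both Tie1-deleted plates were above the other 6. Their 389 and 151 reads came from 14 and 5 wells, and 161 and 86 of these reads from the highest well of each plate. The other 6 plates held 0 to 21 reads each. The share of all genes with both Tie1-deleted plates above the other 6 in this class was not counted. The log2 fold change after Tie1 deletion was 5.63 (SE 1.76, edgeR adjusted p = 1), whereas DESeq2 gave 5.65 with adjusted p = 0.000288. No junction gene was called by edgeR within any of the 3 classes, of 7 tested in capillary-like and collector-like and 8 in valve-like LECs. After Tie1/-2 deletion 19, 50 and 37 genes of all were called in capillary-like, collector-like and valve-like LECs. In the capillary-like LECs 1 of the 7 junction genes then had an edgeR unadjusted p under 0.05, as did 1376 of 14426 genes. After Tie1 deletion edgeR called 0 in each class, where 470, 387 and 875 genes had an unadjusted p under 0.05 and DESeq2 called 122, 67 and 310.

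**Figure D3:**
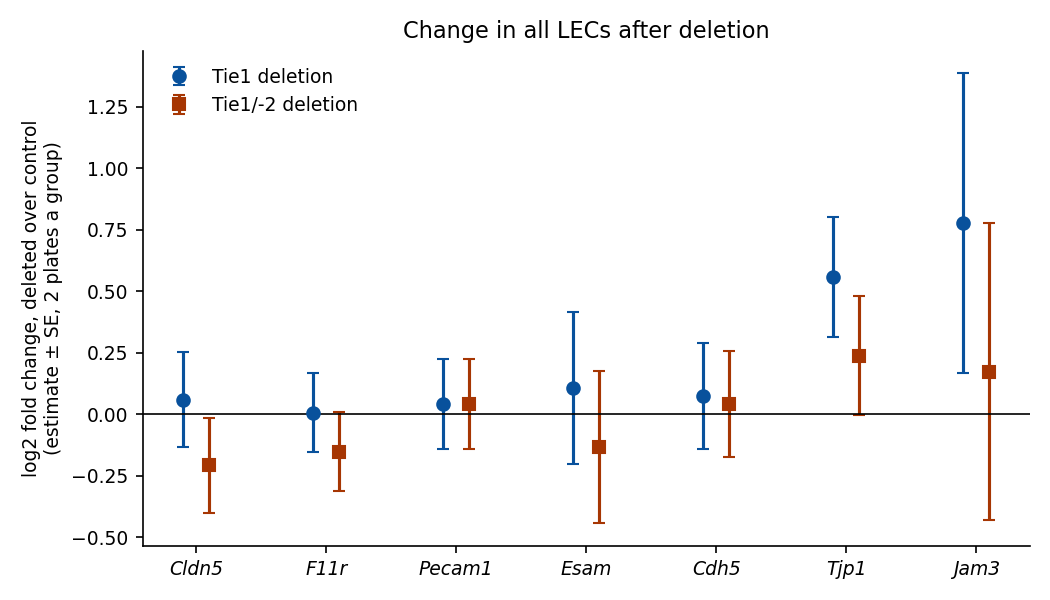
Log2 fold change of 7 junction genes in all LECs after Tie1 deletion (circles) and Tie1/-2 deletion (squares), with the SE of the edgeR fit as bars and 2 plates per group. *Tjp1* and *Jam3* have the highest estimates, at 0.56 and 0.78 after Tie1 deletion, and none of the genes was called.

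Of 51 other junction genes tested in all LECs, from a list made with earlier results of these data known, 0 rose and 2 fell after Tie1/-2 deletion. Over all 19926 genes, 1.21% were called there. For *Cldn11* the paper had already reported lower expression in Tie1/-2–deleted mice from these same cells, so its fall is not independent evidence. *Cldn11* stood at 395 and 431 CPM on the controls and at 76.6 and 66.4 CPM on the Tie1/-2–deleted plates (log2 fold change -2.53, edgeR adjusted p = 0.0013). It stood at 361 and 383 CPM against 427 and 424 CPM in the Tie1 strain, and Tie1/-2 and Tie1 deletion differed by a log2 fold change of -2.72 (edgeR adjusted p = 0.0119), a call that held in 9 of 15 alternatives and was lost when any plate other than the Tie1/-2–deleted plates was left out (adjusted p = 0.0552 to 0.113). Within the valve-like LECs, where it is highest, *Cldn11* fell by 2.98 on the log2 scale after Tie1/-2 deletion (adjusted p = 0.00209). The Tie1/-2–deleted plates had 80 and 71 valve-like wells, against 55 and 60 on their controls. The paper reported that collecting vessels of such pups had almost no valves. Whether the valve-like wells of the deleted plates are valve cells was not tested. *Cgnl1*, which encodes paracingulin, a scaffold of junctions, stood at 52.5 and 44.1 CPM against 15.9 and 10.9 CPM (log2 fold change -1.85, adjusted p = 0.0336), and at 69.4 and 52.4 CPM against 40.7 and 37.6 CPM after Tie1 deletion. The *Cgnl1* call was lost in 9 of 14 alternatives, those that left out a plate among them, with adjusted p up to 0.245. Within capillary-like, collector-like and valve-like LECs its log2 fold change after Tie1/-2 deletion was -3.29 (SE 1.49), -2.61 (SE 1.30) and -1.12 (SE 1.11), and none of these was called.

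The 10x libraries held both vessel types and so gave the levels of the same genes in BECs. LECs numbered 1250 and 714 and BECs 1241 and 1267 in the IgG and the Ang2 Ab library, and the median LEC held 11941.5 and 11412.5 UMIs and the median BEC 8929 and 7452 UMIs in that order. With 1 library per treatment there is no test, and the 95% intervals given are exact and cover counting error only. *Cldn5* was the junction gene most weighted toward LECs. It stood at 1982 CPM in LECs and 612 CPM in BECs of the IgG library, a ratio of 3.24 (3.16–3.32), and at 1830 and 749 CPM in the Ang2 Ab library, a ratio of 2.44 (2.38–2.51). *F11r* was also higher in LECs, at 404 and 261 CPM, a ratio of 1.55 (1.48–1.61).

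The other adhesion genes were higher in BECs. *Cdh5* stood at 478 CPM in LECs and 1379 CPM in BECs (ratio 0.35), *Pecam1* at 629 and 1442 CPM (0.44), *Tjp1* at 177 and 296 CPM (0.60), *Esam* at 96.0 and 770.2 CPM (0.12) and *Jam3* at 5.12 and 59.4 CPM (0.086) in the IgG library. *Jam2* stood at 3.72 and 378 CPM, a ratio of 0.0099 (0.0075–0.013). Keratinocytes of that library, 39 cells, held *Jam2* at 18.4 CPM, above the LEC value. The part of free RNA in the LEC value was not tested. The directions of these 8 ratios were the same in the Ang2 Ab library.

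The shares of cells with a UMI had the same directions after each cell was thinned to 3000 UMIs. *Cldn5* was found in 97.3% of LECs and 57.4% of BECs, *Cdh5* in 72.7% and 94.2%, *Esam* in 21.6% and 88.0% and *Jam2* in 0.985% and 63.6% of the thinned cells of the IgG library. In keratinocytes of that library these shares were 12.1%, 18.2%, 9.09% and 3.03%, at a median depth of 10226 UMIs. Mural cells had *Esam* in 62.7% of the thinned cells and at 387 CPM, and *Cdh5* in 29.2% and at 409 CPM. *Ocln* had 3 and 2 UMIs in the LECs of the IgG and the Ang2 Ab library, and its 6 and 13 UMIs in BECs all lay in the arterial-like cells, at 3.88 and 7.96 CPM, beside 11.4 and 10.9 CPM in keratinocytes. *Cgn* had 0 UMIs in LECs, and 3 UMIs, the limit set for a count of 0, would be 0.183 and 0.327 CPM in the libraries.

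Across the 11 endothelial clusters *Cldn5* did not split along the line between lymph and blood vessels. In the IgG library it was highest in a valve-like LEC cluster led by *Cd79a* and *Sbspon*, at 3131 CPM (3048–3216), and next in arterial-like BECs, at 2301 CPM (2226–2378). Collector-like LECs followed at 1925 CPM, the other valve-like cluster, led by *Slc41a1* and *Irx3*, at 1847 CPM and capillary-like LECs at 1704 CPM, and the intervals of collector-like and this valve-like cluster overlapped. The blood capillary-like cells stood at 513 CPM and the venous-like clusters at 121 and 86.3 CPM. The venous-like values were below the 175 CPM of mural cells and the 176 CPM of fibroblasts in that library, and above the level of keratinocytes. The part of free RNA in them was not tested. The first and second place were the same in the Ang2 Ab library, at 3274 and 1997 CPM. The plates held a like pair of valve-like clusters, and the one led by *Hbegf*, *Hapln2* and *Cd79a* carried *Cldn5* at 3424 ± 379 CPM and *Tjp1* at 172 ± 38.4 CPM, against 2950 ± 335 and 105 ± 27.4 CPM in the one led by *Neo1* and *Slc41a1* (SD over plates with at least 5 wells).

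*Cdh5* was highest in a BEC cluster led by *Kit* and *Prnd*, at 2413 CPM, and in blood capillary-like cells, at 1864 CPM, and lowest in the LEC clusters, at 437 to 551 CPM in the IgG library. The lower *Cdh5* level of valve-like LECs on the plates was not seen in the IgG library, where valve-like LECs stood at 453 CPM (429–477) and collector-like LECs at 449 CPM (435–463), whereas in the Ang2 Ab library they stood at 469 CPM (441–499) and 552 CPM (529–576). *Esam* ran from 603 to 890 CPM in BEC clusters. Among LECs it stood at 251 and 225 CPM in the valve-like clusters and at 66.3 and 56.3 CPM in collector-like and capillary-like LECs, so the valve-like intervals did not overlap with those of the other LECs in the IgG library. In the Ang2 Ab library the valve-like clusters stood at 201 and 254 CPM and the others at 63.3 and 54.6 CPM, again without overlap.

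*Jam3* was highest in 4 BEC clusters, at 77.0 to 92.2 CPM, and stood at 19.4 CPM in arterial-like and at 31.7 and 15.7 CPM in venous-like cells of the IgG library, and the intervals of the first 4 overlapped. *Jam2* was highest in a venous-like cluster led by *Slfn4*, at 484 CPM, and ran from 322 to 396 CPM in the other BEC clusters. *Tjp1* was lowest in collector-like LECs, at 131 CPM (124–139) against 221 CPM (208–235) in capillary-like LECs, although the interval of collector-like LECs overlapped with that of the venous-like cluster led by *Sele* and *Selp*, and it stood at 151 and 207 CPM in the Ang2 Ab library. By cluster *Tjp1* did not split between LECs and BECs in the IgG library. Capillary-like LECs were above that venous-like cluster, at 148 CPM (131–166). The valve-like cluster led by *Cd79a* and *Sbspon* stood at 278 CPM (254–304), beside 245 CPM (220–273) in BECs led by *Col13a1* and *Efhd1*. *F11r* ran from 382 to 445 CPM in the LEC clusters and from 178 to 344 CPM in the BEC clusters of the IgG library, where the intervals of collector-like LECs and arterial-like BECs overlapped.

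**Figure D4:**
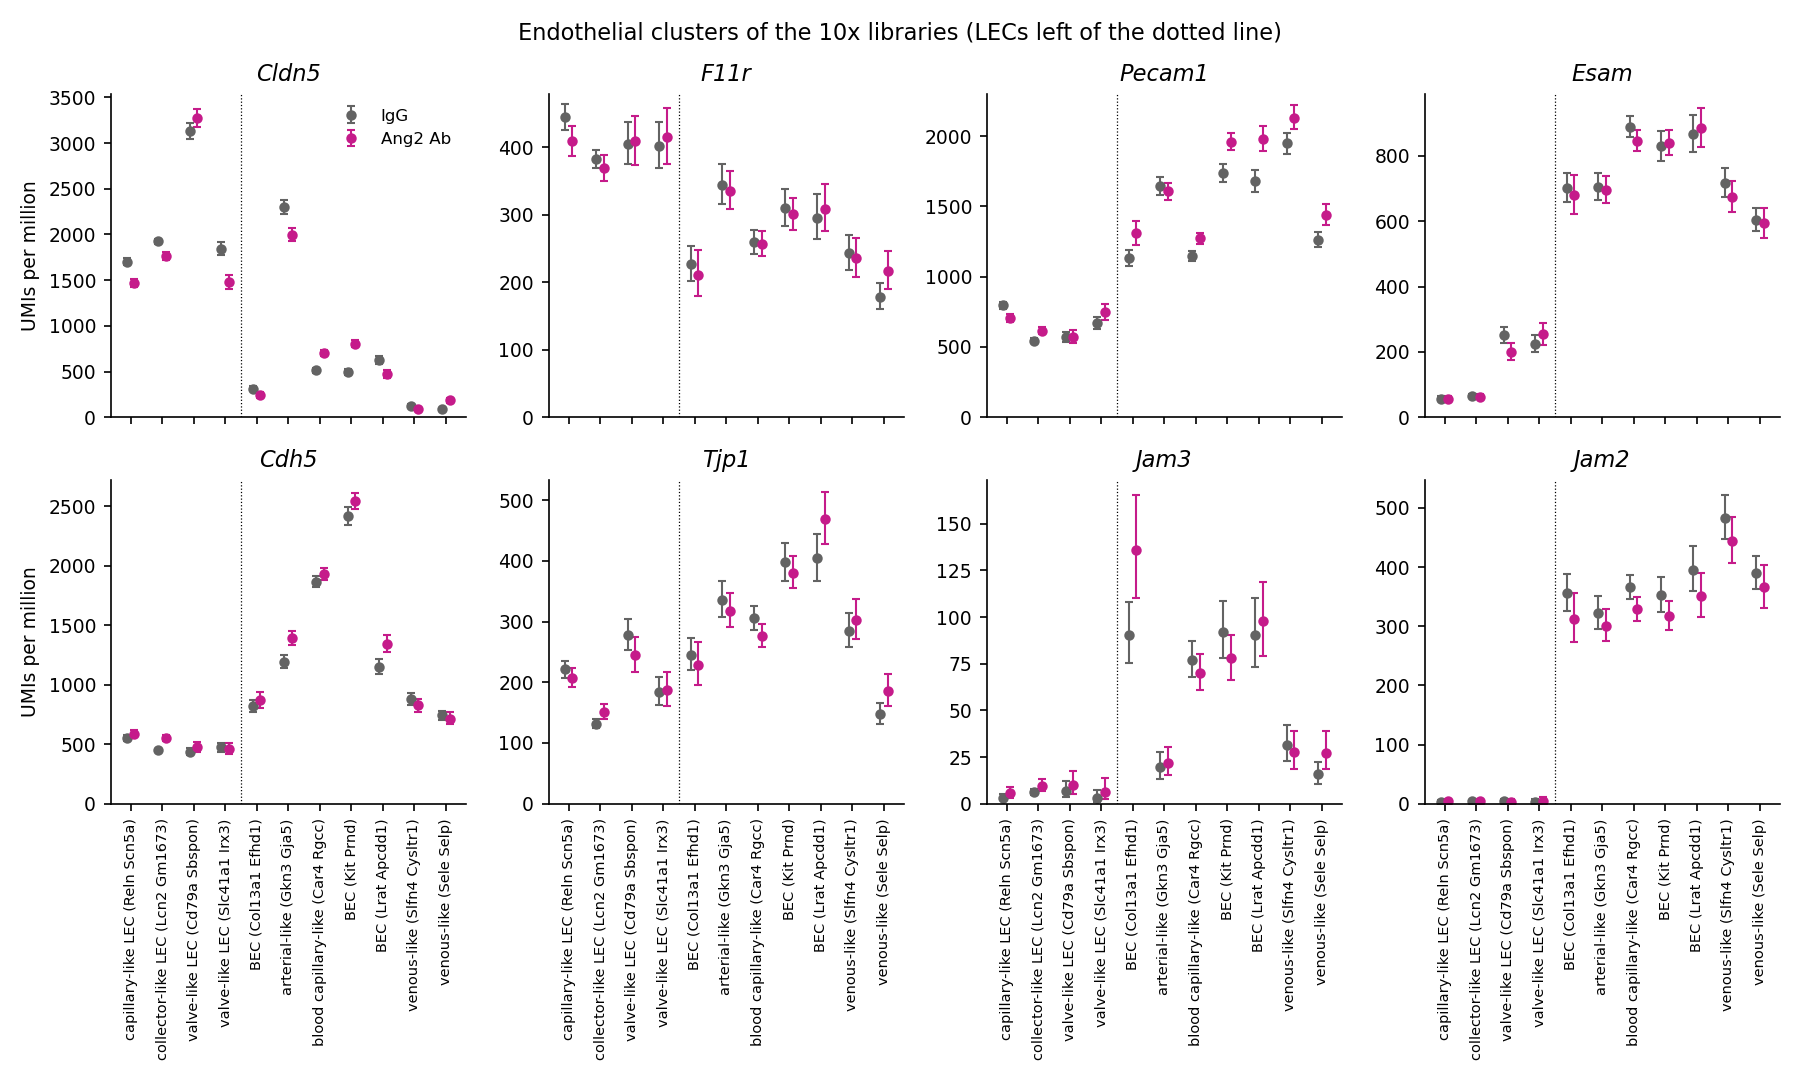
Level of the junction genes in each endothelial cluster of the IgG and the Ang2 Ab library, in UMI CPM with exact 95% intervals for counting error. *Cldn5* was high in the LEC and the arterial-like clusters, whereas *Cdh5*, *Esam*, *Jam2* and *Jam3* were higher in the BEC than in the LEC clusters.

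Ang2, a ligand of Tie2, was blocked in the remaining model, and the 2 libraries were set side by side. In LECs the ratio of Ang2 Ab to IgG was 1.14 (1.10–1.18) for *Cdh5*, 0.92 (0.91–0.94) for *Cldn5*, 1.02 (0.94–1.11) for *Esam*, 0.97 (0.93–1.01) for *F11r*, 1.04 (1.01–1.08) for *Pecam1* and 1.05 (0.99–1.12) for *Tjp1*. For *Jam2* it was 1.20 (0.79–1.81), from 61 and 41 UMIs. Only *Jam3* passed 1.5-fold among the 8 genes with at least 100 UMIs, at 84 and 73 UMIs and a ratio of 1.55 (1.12–2.15), and 6.59% of 10512 genes were past that size. *Jam3* stood at 5.12 and 7.96 CPM in LECs, beside 59.4 and 62.5 CPM in BECs. The part of free RNA in the *Jam2* and *Jam3* ratios was not tested. The median ratio over the 8 genes was 1.05, and over all genes 1.00.

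In BECs 0 of the 8 genes passed 1.5-fold, where 3.3% of 10288 genes did. *Cdh5* stood at 1379 CPM with IgG and 1602 CPM with Ang2 Ab, a ratio of 1.16 (1.14–1.19), and *Pecam1* at a ratio of 1.14 (1.11–1.16). *Cldn5* stood at 612 and 749 CPM, a ratio of 1.22 (1.19–1.26), above 1 where the ratio in LECs was below 1. *Jam2* stood at a ratio of 0.90 (0.86–0.94), *Esam* at 1.00 (0.97–1.03), *Jam3* at 1.05, *F11r* at 1.04 and *Tjp1* at 1.05.

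The *Cldn5* ratio differed in direction between BEC clusters. It was 1.62 (1.48–1.76) in the cluster led by *Kit* and *Prnd*, from 785 UMIs in 221 cells and 1717 UMIs in 308 cells, 1.37 (1.29–1.46) in blood capillary-like cells and 2.13 (1.73–2.64) in the venous-like cluster led by *Sele* and *Selp*, from 165 and 202 UMIs. In that last cluster *Cldn5* stood at 86.3 CPM with IgG and 184 CPM with Ang2 Ab, beside 175 and 141 CPM in mural cells, 176 and 14.4 CPM in fibroblasts and 44.0 and 19.9 CPM in keratinocytes, so the part of free RNA in this ratio was not tested. It was 0.87 (0.83–0.91) in arterial-like cells, 0.76 in the venous-like cluster led by *Slfn4*, 0.75 in the cluster led by *Lrat* and *Apcdd1* and 0.77 in the cluster led by *Col13a1* and *Efhd1*. *Cldn5* was the 1 junction gene past 1.5-fold in the *Kit* and *Prnd* cluster, where 3.86% of genes were, and in the *Sele* and *Selp* cluster, where 8.25% were. In the blood capillary-like, arterial-like, *Slfn4* and *Lrat* clusters 0 junction genes passed that size, against 2.38%, 2.48%, 6.4% and 3.54% of genes. Among LECs the ratio was 0.86 (0.83–0.89) in capillary-like, 0.92 (0.89–0.94) in collector-like and 0.97 (0.93–1.00) in valve-like cells. The valve-like clusters differed, at 1.05 (1.00–1.09) in that led by *Cd79a* and *Sbspon* and 0.80 (0.75–0.86) in that led by *Slc41a1* and *Irx3*. Among the LEC classes 0 of 6 junction genes passed 1.5-fold in any class, against 7.64%, 7.78% and 4.49% of genes. *Jam3* was not among the 6, since it had under 100 UMIs in each class. Its ratios were 1.69 (0.79–3.64) in capillary-like, 1.59 (1.02–2.45) in collector-like and 1.62 (0.78–3.40) in valve-like LECs. In the cluster led by *Col13a1* and *Efhd1* *Jam3* passed 1.5-fold, at a ratio of 1.5 (1.14–1.97), where 4.93% of genes did.

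**Figure D5:**
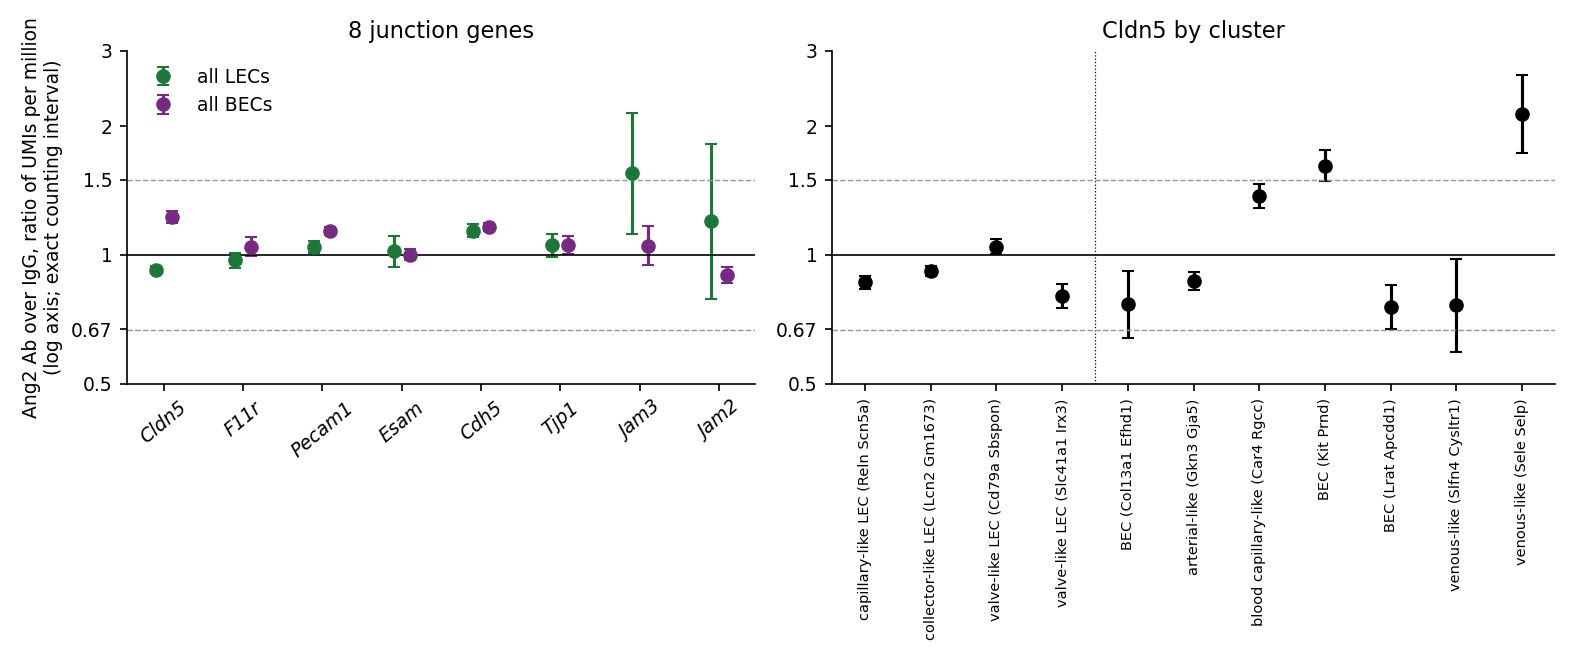
Ratio of UMI CPM with Ang2 Ab to that with IgG for 8 junction genes in LECs and BECs (left) and for *Cldn5* in each endothelial cluster, LECs left of the dotted line (right), on a log axis with exact 95% intervals for counting error and dashed lines at 1.5-fold either way. *Cldn5* was below 1 in all LECs (0.92) and above 1 in all BECs (1.22), but below 1 in 4 of 7 BEC clusters and above 1 in 1 of 4 LEC clusters, and *Cdh5* was above 1 in both (1.14 and 1.16).

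Side by side across the 3 models, *Cdh5* in LECs had log2 fold changes of 0.08 and 0.04 after the deletions, each smaller than its SE, and a ratio of 1.14 with Ang2 Ab. *Cldn5* had 0.06 and -0.21 and a ratio of 0.92, and *Tjp1* had 0.56 and 0.24 and a ratio of 1.05. *Jam3* had 0.78 and 0.17, neither of them called, and a ratio of 1.55 from 84 and 73 UMIs. The ratios are not on the log2 scale, so their sizes cannot be read directly against the fold changes. The other junction gene that fell after Tie1/-2 deletion and also passed 1.5-fold in LECs with Ang2 Ab was *Cgnl1*, at 55.3 CPM with IgG and 34.0 CPM with Ang2 Ab, a ratio of 0.62 (0.54–0.70). It stood at 70.1 and 33.4 CPM in capillary-like, at 59.3 and 41.3 CPM in collector-like and at 21.5 and 21.5 CPM in valve-like LECs. Of 39 other junction genes with at least 100 UMIs in LECs, 1 was higher and 1 lower past 1.5-fold, against 6.59% of 10512 genes. The *Cgnl1* call after Tie1/-2 deletion held in 5 of 14 alternatives. How many of all genes called after Tie1/-2 deletion also passed 1.5-fold with Ang2 Ab was not counted. *Cldn11* stood at 240.4 and 242 CPM in all LECs and at 1116 and 961 CPM in valve-like LECs.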

How the data were processed

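Wells of the plates and cells of the 10x libraries were taken as deposited. The authors' files hold raw read counts per gene and well, made after removal of duplicate reads, and raw UMI counts per gene and barcode. The submitters' processing notes list TopHat2 2.1.1, SAMtools 0.1.18, featureCounts, Cell Ranger 2.1.1 and GRCm38, and the matrix headers name Cell Ranger 6.0.2. Use of strand in counting was not given in the sources used here. The 10 genes and the other lists were chosen with earlier results of these data known.

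A well needed at least 1000 detected genes, and a 10x cell at least 500 with no more than 10% of its UMIs mitochondrial. Scrublet marked 20 of 3438 and 2 of 2963 cells, too few for it to have worked, and these were removed. Clusters (scanpy 1.11.5, 2000 variable genes, 30 components, 15 neighbors, Leiden resolution 1.0) were made without junction genes. A name needed at least 3 markers raised 1.5-fold in at least 10% of cells, but not every cluster with 3 was named. A plate cluster of 298 wells with 3 of 6 capillary LEC markers stayed unnamed. So did the 10x cluster led by *Kit* and *Prnd*, with 3 of 7 blood capillary markers. These naming thresholds were set after the clusters had been seen. A cluster of 303 shallow wells with fibroblast genes and 16 keratinocyte wells were left out of the plate LECs. The 303 wells, at 0.10 of the median depth, held *Cldn5* at 3233 ± 696 CPM and *Pecam1* at 1889 ± 356 CPM (SD, n = 8 plates). These levels lay within the range of the LEC clusters, and whether the wells are LECs was not tested.

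Counts summed per plate, or per plate and class with the plate as a block, went into the quasi-likelihood test of edgeR 4.0.16, after filterByExpr and with TMM factors and Benjamini-Hochberg adjustment over all genes tested (threshold 0.05), with 1 fit over the 8 plates for each set of sums. Replicate spread rests on 2 plates per genotype. The code was tested on simulated data. DESeq2 1.42.0 and other settings were alternatives. With 1 library per treatment the 10x values are UMI CPM of sums with exact 95% intervals, and a ratio of 1.5 either way with at least 100 UMIs was the size named. All members were named, and of the other junction genes those called, at most the 6 with the lowest p in a contrast. The study's own single-cell methods were not used here.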

Additional observations from a re-analysis of the deposited data

Results flagged for a closer look

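The ratio of Ang2 Ab to IgG for *Cldn5* was 0.92 over all LECs and 1.22 over all BECs. By cluster it did not follow the vessel type, since it was below 1 in 4 of 7 BEC clusters and above 1 in 1 of 4 LEC clusters (1.05). The difference between LECs and BECs was not tested, since each treatment had 1 library. *Cldn11*, a claudin outside the 10 genes, differed between the deletions by -2.72 on the log2 scale (Tie1/-2 minus Tie1), by the interaction term of the edgeR fit (adjusted p = 0.0119). Groups of 2 plates were too small to test for a sample far from the others.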

How the results depend on the processing

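Of 830 alternative values of single genes, 698 were counted as unchanged, 92 lost a call, 7 gained one, 9 moved and 24 changed sign. The 24 were all plate estimates. Ratios of Ang2 Ab to IgG that changed direction were not counted among them. In LECs the lowest alternative ratio was 0.904 for *Jam2* and 0.977 for *Esam*, against 1.20 and 1.02 in the main setting. In BECs it was 0.991 for *Esam* and 0.986 for *Jam3*, against 1.0008 and 1.05. Of 215 counts of called junction genes, 188 were unchanged or within 1.5 times. No cause was tested for the changes below.

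Without the filter on low counts 1 junction gene (*Ocln*) was called after Tie1 deletion and 1 for the average of the deletions, and DESeq2 also called *Ocln* for the average. Between collector-like and capillary-like LECs the count was 1, 2 with DESeq2, 2 on control plates alone and 0 to 2 when a plate was left out. Between valve-like and capillary-like LECs it was 1, 2 with DESeq2, 2 on control plates alone and 1 to 2 when a plate was left out. Between valve-like and collector-like LECs it was 2, then 3 with DESeq2 (*Cdh5*, *Esam* and *Jam2*, the last with adjusted p = 0.0423), 1 with a Leiden resolution of 2.0, 1 on control plates alone, 1 without the filter and 0 to 2 when a plate was left out. In capillary-like LECs DESeq2 called 1 gene (*Jam3*) after Tie1 deletion and 1 for the difference between the deletions. With at most 5% mitochondrial UMIs 0 genes passed 1.5-fold in LECs with Ang2 Ab, since *Jam3* fell under 100 UMIs. After the data were seen, the valve-like cluster led by *Cd79a* and *Sbspon* was left out, and the *Cldn5* ratio in LECs was then 0.87.

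Signs changed only for estimates that were not called. *F11r* after Tie1 deletion was -0.0044 with DESeq2, -0.0061 with RLE factors and -0.0046 with no cluster removed. *Jam3* after Tie1/-2 deletion was -0.050 with the table layout as a term, *Tjp1* in collector-like against capillary-like LECs was 0.53 with a Leiden resolution of 2.0, and *F11r* in valve-like against capillary-like LECs was 0.0068 on control plates alone. With a plate left out, the log2 fold change after Tie1 deletion ran from -0.0635 to 0.24 for *Cdh5*, -0.13 to 0.26 for *Cldn5*, -0.0594 to 0.25 for *Esam*, -0.0779 to 0.11 for *F11r* and -0.10 to 0.21 for *Pecam1*. After Tie1/-2 deletion it ran from -0.12 to 0.22 for *Cdh5*, -0.48 to 0.34 for *Esam*, -0.95 to 0.78 for *Jam3* and -0.19 to 0.21 for *Pecam1*. Between classes it ran from -0.1817 to 0.0033 for *Tjp1* (collector-like minus capillary-like) and from -0.0077 to 0.0474 for *F11r* (valve-like minus collector-like).

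Over all genes the count after Tie1 deletion was 0, 236 with DESeq2 and 268 without the filter, and after Tie1/-2 deletion it was 241, 1162 with DESeq2, 1268 without the filter and 79 to 221 when a plate was left out. Between classes DESeq2 called 765, 1417 and 1383 genes in place of 205, 606 and 543 (collector-like against capillary-like, valve-like against capillary-like and valve-like against collector-like). The replicate numbers of the Tie1 strain name plates and were not given as a pairing. With them as a replicate block 0 junction genes were called for Tie1 deletion, the difference and the average, *Tjp1* changed by 0.55 and 0.39 on the log2 scale (Tie1 deletion and average), 160 genes were called for the average in place of 201, and the *Cgnl1* call for the average was lost (edgeR adjusted p = 0.0712).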

Other observations

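Across 22 points (11 endothelial clusters in 2 libraries, which share library and depth), the genes with the level most like that of *Cldn5* among 11712 genes were *Tpd52*, *Gja4* and *Rnf152* (Pearson's r = 0.94 for each, on log2 values). For *Cdh5* they were *Pea15a*, *Nus1* and *Fmnl1* (r = 0.96, 0.96 and 0.95), and for *Pecam1* they were *Cds2*, *Wdr37* and *Ttc28* (r = 0.98, 0.97 and 0.97). These are descriptions over clusters that were made without the junction genes.

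Outside the endothelium, mural cells held *Jam2* at 86.3 CPM with IgG and 50.04 CPM with Ang2 Ab, a ratio of 0.58 (0.47–0.72), from 229 and 137 UMIs. The share of all genes past 1.5-fold in mural cells was not counted. These cells also held *Cdh5* and *Esam*, and the part of free RNA in their *Jam2* values was not tested. On the plates the unnamed LEC cluster led by *Kcnj8* and *Aqp1* held *Esam* at 83.9 ± 29.8 CPM (SD, n = 8 plates), and proliferating LECs held *Cldn5* at 2025 ± 529 CPM and *Tjp1* at 59.2 ± 27.8 CPM.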
